A study of Mus musculus with 4 samples.

Results

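The rim and the core are the outer and the inner spots of the infarct zone in Visium sections of mouse hearts, in which polyadenylated RNA was counted as unique molecular identifiers (UMIs) on a hexagonal grid of spots. Both were selected on measured values: for every spot with at least 500 UMIs, the UMIs of 12 cardiomyocyte genes (Myh6, Tnnt2, Tnni3, Actc1, Myl2, Myl3, Pln, Mb, Ckm, Tcap, Ryr2 and Ttn) were taken as a share of its UMIs outside mitochondrially encoded genes. Spots under 0.5 times the 90th percentile of their own section formed the infarct zone (IZ) where they lay in connected patches of at least 10 spots. The rim held the IZ spots 1 to 2 grid steps from the nearest spot that was not low, the core held those more than 4 steps away, and the spots between them, at 3 to 4 steps, are called the middle. Rim and core together held 2317 of the 4743 spots of the infarcted sections and of the 5909 spots of the series.

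The sections came from 4 hearts of 8- to 12-week-old mice of genotype Collagen1a1-GFP+, 1 section a heart, in which a GFP transcript follows the collagen I promoter and so marks mainly fibroblasts. Infarction was induced by ligation of a coronary artery, and hearts were taken 3 days (3 dpi, 1 heart) or 5 days (5 dpi, 2 hearts) later, beside 1 uninjured control heart without an IZ. The control, 3 dpi and 1 of the 5 dpi sections are labelled female and the other 5 dpi section male. Y-linked genes gave 712 UMIs in the 5 dpi section labelled female, 1 in the section labelled male and 0 in the others, so the label serves as a name for each 5 dpi section and no sex is drawn from it.

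In a healing infarct, dead cardiomyocytes are cleared by neutrophils, monocytes and macrophages while fibroblasts lay down a scar. Healing proceeds inward from the surviving muscle, where blood vessels remain, and reaches the interior of the infarct last. Macrophages that have taken up dead cells and lipid express Spp1 (osteopontin) and Gpnmb, newly arrived monocytes express Ly6c2 and Chil3, and reparative cardiac fibroblasts express Postn (periostin) and Cthrc1.

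At 3 dpi the rim held 358 spots and the core 342. At 5 dpi rim and core spots numbered 172 and 819 in the section labelled female, 93 and 533 where the label was male. The IZ was 1 patch in each section and reached 16, 41 and 31 steps from the spots outside it, in the order 3 dpi, 5 dpi labelled female and 5 dpi labelled male, which is the order of values throughout. The median core spot lay 8, 24 and 17 steps inside, so the core at 5 dpi held tissue at depths that the 3 dpi section did not have. The sums behind each value were 1991359, 1171625 and 525828 non-mitochondrial UMIs in the rim and 1833236, 5834547 and 3942948 in the core. Median UMIs per spot were 6666.5, 7309.5 and 6230 in the rim against 5020.5, 7317 and 7393 in the core.

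The selecting share was 3.155%, 2.55% and 2.95% in the rim and 1.25%, 0.341% and 0.541% in the core, against 9.83%, 9.06% and 8.18% in the remote zone (RZ, spots more than 4 steps outside the IZ) and 10.1% in the control. The limits were 5.28%, 4.31% and 4.64%. The highest IZ spots stood at 5.28%, 4.27% and 4.58% and the lowest spots that were not low at 5.28%, 4.33% and 4.64%. Spots at 2 steps, the last of the rim, had 2.44%, 1.99% and 2.31%, and spots at 3 steps, just outside it, 1.56%, 1.06% and 1.39%. Spots at 4 and 5 steps, on either side of the limit of the core, had 1.28% and 1.33% at 3 dpi, 0.711% and 0.588% at 5 dpi under the label female and 1.37% and 1.10% under the label male. These values are the ones that set the bands and serve only to describe them.

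**Figure D1:**
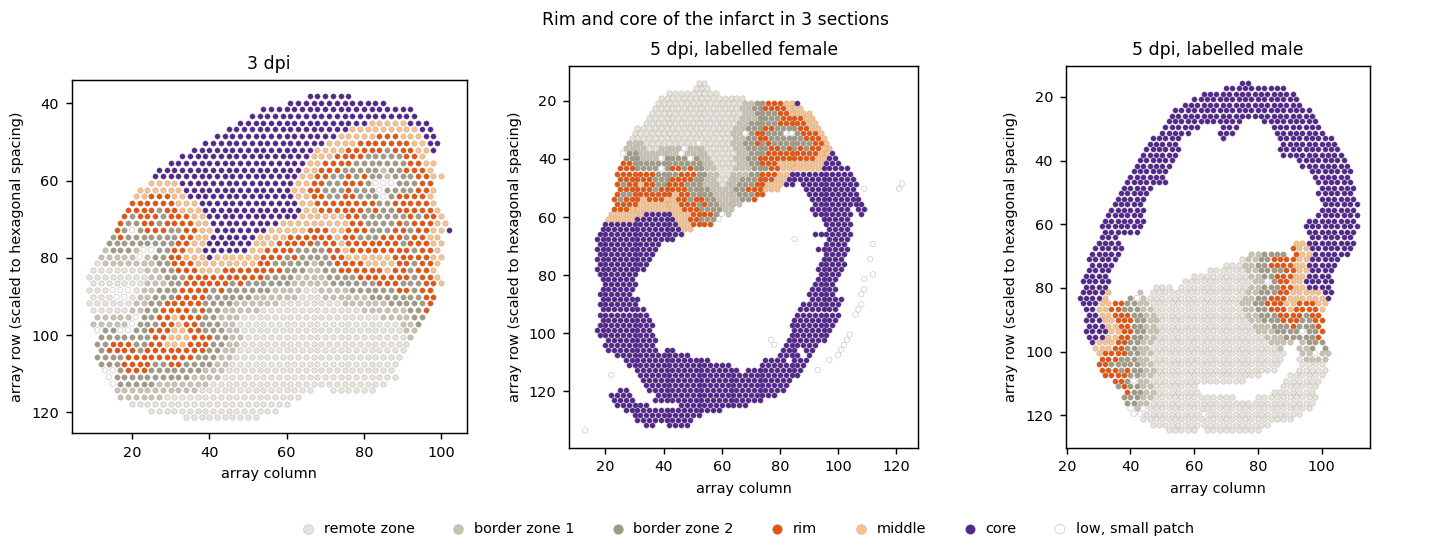
Maps of the 3 infarcted sections by array column and row, each point 1 spot, coloured by band: remote zone, border zones 1 and 2, rim, middle and core. The rim runs as a ribbon along the muscle with 358, 172 and 93 spots, and the core fills the interior with 342, 819 and 533 spots.

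Measures that the rule did not use also differed between the bands. Mitochondrially encoded genes took 14.7%, 14.0% and 10.1% of UMIs in the rim, 6.04%, 3.16% and 2.23% in the core, and 38.5%, 43.6% and 27.5% in the RZ. Spots at the edge of the tissue, with fewer than 6 neighbours, made up 1.40%, 11.6% and 20.4% of the rim and 14.3%, 31.1% and 34.9% of the core. Cardiomyocyte RNA, mitochondrial RNA and tissue edge thus moved with the bands, and their part in the results below was not tested beyond the comparisons given there. A spot covers several cells, so fewer cells of a type and less RNA per cell cannot be told apart in any value given here.

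Which genes distinguish the layer beside the surviving muscle from the interior of the infarct was asked over the 3 infarcted hearts. UMIs were summed per band and section, and rim and core were compared by edgeR's quasi-likelihood test with the section as a block and Benjamini-Hochberg adjustment over 10445 genes, at a threshold of 0.05. Of these genes, 1233 were higher in the rim (11.8%) and 709 higher in the core (6.79%), 1204 and 707 of them in 3 of 3 sections. At least 2-fold differences were found for 650 and 236 of them. The 1233 include the 12 genes of the rule, whose direction the rule fixes, and 67 of 70 other cardiomyocyte genes tested. With both groups left out, 1141 genes were higher in the rim and 856 in the core. The median log2 rim over core of all genes tested was 0.01. The count of core genes changed with each section left out. It rose to 1128 without the 3 dpi section. It fell to 362 without the 5 dpi section labelled female and to 367 without its counterpart labelled male. With the core held to 5 to 16 steps, the depths that every section has, 1038 genes were higher in the rim and 562 in the core. The 3 dpi group has 1 heart, so a difference between days has no replicate.

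Because the rule selects on cardiomyocyte RNA, which is higher beside the muscle, the rim was also compared with the RZ in the same way. Of 8984 genes, 1347 were higher in the rim than in the RZ (15.0%) and 1468 lower (16.3%), and these counts were 537 and 794 without the 5 dpi section labelled female. Both comparisons share the rim sums, so they are given side by side and not as support for each other. Among the 1233 rim genes, 115 were also above the RZ, 749 were below it, 352 were not called and 17 were not tested. The 749 are genes whose level fell from muscle through rim to core, and 355 of them were highest in the RZ of all 6 bands in 3 of 3 sections. Of the 115, 43 were highest in the rim and 91 were highest inside the IZ in 3 of 3 sections. Of the 709 core genes, 392 were highest in the core in 3 of 3 sections. Not every gene given below as higher in the rim than in the core is among the 115. Bambi, Bnip3, Col9a2, Dcn, Eln, Fbxo40, Gaa, Gas6, Higd1b, Itga7, Itga9, Ltbp4, Msln, Nqo1 and Rgs5 were not called, or not tested, between rim and RZ. Abcc9, Ank1, Cd36, Egln3, Fhl2, Fhod3, G0s2, Gpihbp1, Hk2, Kcnj8, Lpl, Ly6c1, Nmrk2, Pi16, Prox1, Ptgds, Sod2, Tpm1 and the genes of the rule were lower in the rim than in the RZ.

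Of the 12 genes with the largest folds toward the core, chosen by this fold at a mean of at least 50 CPM (UMIs scaled to a common total of non-mitochondrial UMIs) and with cardiomyocyte and oxidative genes left out, 11 are reported: Spp1, Hmox1, Clec4d, Ccl7, S100a8, Clec4n, Adam8, Pf4, Ccl6, Mmp12 and Hp. All 11 were highest in the core of the 6 bands in 3 of 3 sections. They encode products of macrophages, monocytes and neutrophils or proteins that handle heme and hemoglobin. Because these genes were named for their folds, the folds describe them and support nothing further.

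Spp1, the gene of osteopontin, stood at 1349, 279 and 173 CPM in the rim and 3957, 3314 and 2094 CPM in the core. Every core value was above every rim value, with a log2 core over rim of 2.71 ± 0.32 (edgeR adjusted p = 0.000105). The rim was itself far above the RZ, which had 73.9, 18.7 and 18.1 CPM. A spot with at least 1 Spp1 UMI was common in the core, 98.0%, 97.6% and 95.1% of spots, and less so in the rim, 89.1%, 70.9% and 52.7%. In the control section 0 of 1165 spots held a Spp1 UMI, which allows a share of spots with a UMI of up to 0.258% by counting error in that section alone. Between the step next to the muscle and the deepest spots, Spp1 climbed from 857 to 5449 CPM at 3 dpi, and at 5 dpi from 200.3 to 3689 and from 141 to 2760 CPM.

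**Figure D2:**
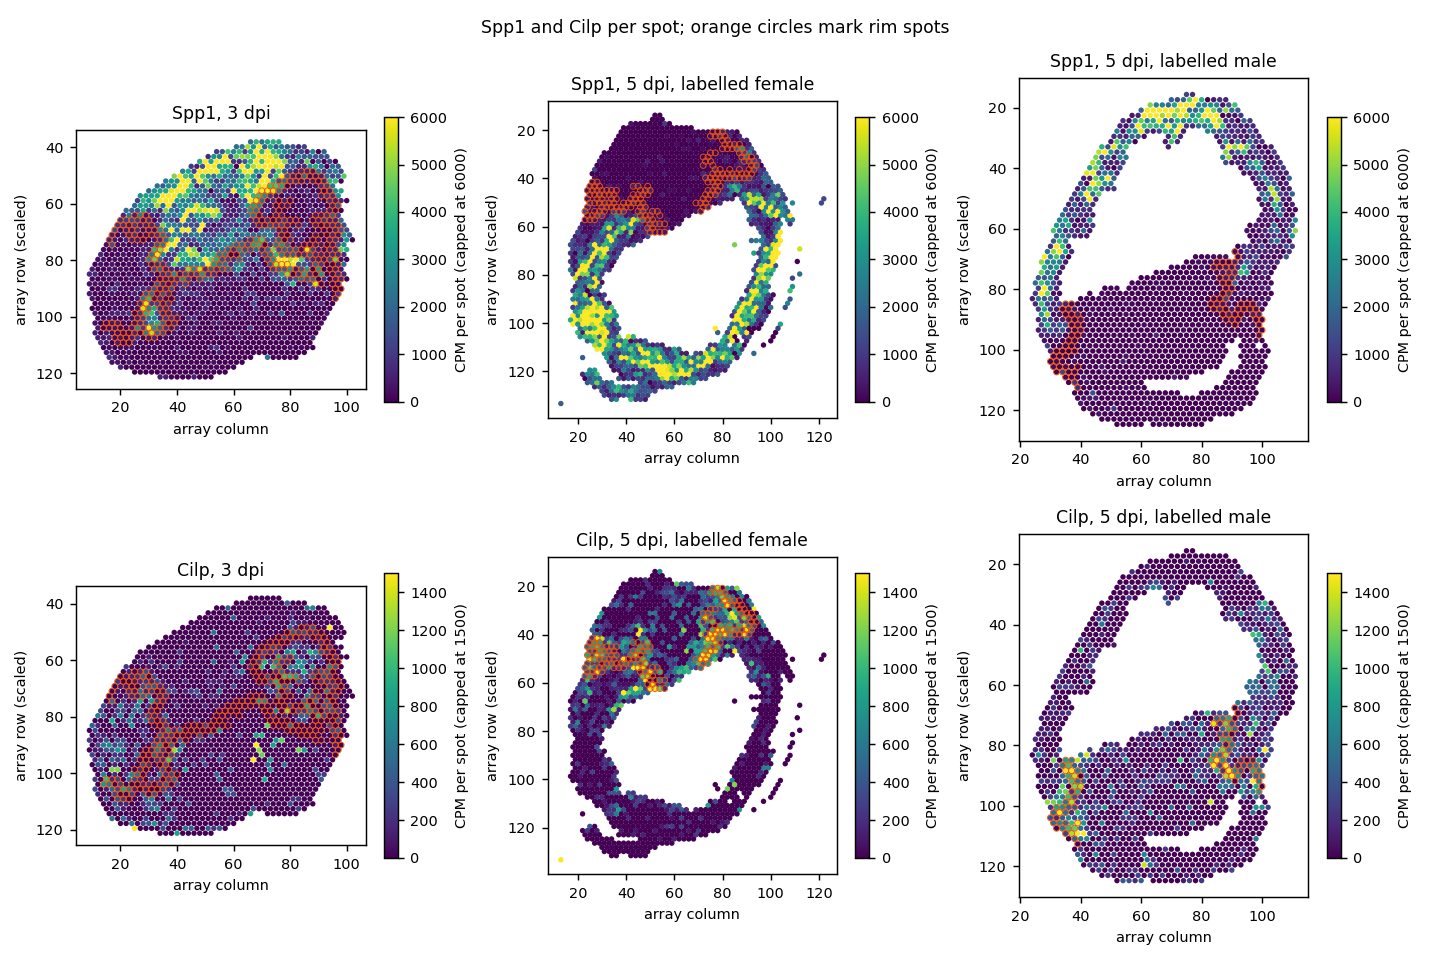
Maps of Spp1 (top) and Cilp (bottom) in CPM per spot for the 3 infarcted sections, by array column and row, with rim spots outlined in orange and the colour scale stopped at its upper end. Spp1 fills the interior of the infarct and is low in the outlined spots, where its sum is 1349, 279 and 173 CPM, and Cilp lies along the outlined spots, where its sum is 169.7, 724 and 692 CPM.

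The lists of cell types and pathways were read by counts of members called and by their median, beside 11.8% and 6.79% of all genes and a median of 0.01. Scaling by trimmed means (TMM) moved the log2 rim over core by 0.17 in the mean of the sections, so a list whose median is nearer to 0 than that has no direction free of the scaling. Recruited monocyte genes were mostly core genes: 17 of 20 tested were higher in the core, 0 higher in the rim, and the median log2 core over rim was 1.502. Ly6c2, Plac8 and Chil3, genes of newly arrived monocytes, had log2 core over rim of 1.51, 1.49 and 1.54. Lipid-associated and Spp1 macrophage genes had 15 of 22 higher in the core and 2 in the rim, with a median of 0.88. Gpnmb, a glycoprotein of lysosomes and of lipid-laden macrophages, was at 271, 115 and 79.9 CPM in the rim and 408, 636 and 675 CPM in the core. Plin2, which coats lipid droplets, was at 137, 108 and 97.0 against 427, 381 and 354 CPM (log2 core over rim 1.60 ± 0.13, edgeR adjusted p = 1.86e-05). The 2 members of this list higher in the rim were Lpl and Cd36, which release and take up fatty acids in muscle and capillaries too.

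Macrophage genes shared by all macrophages were higher in the core as well, 10 of 13 (median 0.84), with a summed level of 4102 to 5628 CPM over the rims and 9193 to 12050 CPM over the cores. Cd68, a lysosomal glycoprotein of macrophages, was at 276, 130 and 131 CPM in the rim and 427, 496 and 497 in the core. Adgre1 and Csf1r, which encode the F4/80 antigen and the receptor of colony-stimulating factor 1, did not pass, with log2 core over rim of 0.44 ± 0.16 (edgeR adjusted p = 0.0729) and 0.35 ± 0.13 (0.0826). Of 12 resident macrophage genes, 6 were higher in the core and 1, Gas6, a bridging protein between dead cells and their receptors, in the rim. Pf4, a CXC chemokine of platelets and tissue macrophages, was at 461.5, 182 and 125.5 CPM in the rim and 1354, 892 and 808.5 in the core.

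Neutrophil genes gave 8 of 11 higher in the core and 1 in the rim, with a median of 1.40. S100a8, a subunit of calprotectin, was at 40.7, 31.6 and 17.1 CPM in the rim and 208, 133 and 102 CPM in the core, with no overlap. Its partner S100a9 was at 48.7, 37.5 and 51.3 against 209, 135 and 128 CPM. The receptor of granulocyte colony-stimulating factor, Csf3r, was at 11.1, 5.97 and 5.71 against 37.1, 21.1 and 22.6 CPM. Il1b, the gene of interleukin 1 beta, had a log2 core over rim of 1.84 ± 0.30 (edgeR adjusted p = 0.000911). The member higher in the rim was G0s2, an inhibitor of lipolysis that muscle also expresses, at 26.1, 31.6 and 41.8 against 13.6, 14.7 and 18.0 CPM. The summed level of the list was 555 to 639 CPM over the rims and 1235 to 1384 over the cores.

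Among CC and CXC chemokines 11 of 21 were higher in the core and 0 in the rim. Ccl7, which attracts monocytes, was at 129, 15.4 and 24.7 CPM in the rim and 369, 185 and 168 in the core. Ccl6 showed 187, 63.2 and 60.9 against 756, 278 and 296 CPM, with a log2 core over rim of 1.96 ± 0.13 (edgeR adjusted p = 1.07e-05). The ligand of the receptor Ccr2, Ccl2, was at 131, 11.9 and 20.9 against 273, 144 and 107 CPM. For Ccl7, Ccl2 and Ccl6 the 3 dpi rim was several times above both 5 dpi rims.

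Lysosomal genes ran the same way, with 19 of 33 higher in the core and 1 in the rim (median 0.51). The cathepsins Ctsl and Ctss, proteases of the lysosome, had log2 core over rim of 1.35 and 1.25, and Psap, the precursor of the saposins that help break down sphingolipids, 0.96. Gaa, the lysosomal enzyme that cleaves glycogen, was the member higher in the rim, at 118, 194 and 181 against 89.5, 133 and 145 CPM. Of 20 efferocytosis genes, which act in the uptake of dead cells, 8 were higher in the core and 3 in the rim, and the receptor Mertk did not pass (log2 core over rim 0.53 ± 0.33, edgeR adjusted p = 0.308).

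Genes of heme, iron and the response to oxidative stress split between the bands: 12 of 29 were higher in the core, 5 higher in the rim and 12 did not pass. Hmox1, the enzyme that opens the heme ring and frees its iron, was at 219, 70.8 and 59.0 CPM in the rim and 1204, 691 and 467 in the core (log2 core over rim 2.70 ± 0.17, edgeR adjusted p = 7.43e-06). No rim value reached a core value. A Hmox1 UMI was found in 49.4%, 33.1% and 21.5% of rim spots and in 75.7%, 81.3% and 66.0% of core spots. Its level was highest in the deepest spots, at 2447 CPM at 9 to 16 steps at 3 dpi and 905 and 771 CPM beyond 16 steps at 5 dpi. Hp (haptoglobin, which binds free hemoglobin) was at 18.6, 21.3 and 26.6 against 55.6, 118 and 125.5 CPM. The iron exporter Slc40a1 (ferroportin) and the ferritin genes Ftl1 and Fth1, which store iron, had log2 core over rim of 1.15, 1.18 and 0.85. In the rim, Nqo1, a quinone reductase, was at 34.1, 45.2 and 57.1 against 12.0, 10.6 and 10.9 CPM, and its level there did not pass against the RZ (log2 RZ over rim 0.44, edgeR adjusted p = 0.147). Sod2, the superoxide dismutase of mitochondria, was higher in the rim than in the core and lower than in the RZ, as were oxidative genes in general.

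The promoters of this list were searched for TGACNNNGC, the core of the antioxidant response element, on both strands, in RefSeq windows from 250 bases before to 50 after each start (GRCm38.p6). Promoters of 25 of the 32 genes were found, 30 in all, and 9 of them held it (30.0%), against 12.4% of all 32851 promoters. A match is a description of these letters and not of binding. The windows below are from the core genes of the list with a match before the start, in the direction of the gene, with the match in capitals, here always in its form on the other strand (GCNNNGTCA). The motif also lies in promoters of Txnrd1, Nfe2l2 and Mt2, which did not pass between rim and core. The windows show how the same 9-letter core lies in promoters of enzymes for thioredoxin, glutathione, pentose phosphate and bilirubin metabolism.
Prdx1, chr4:116685446-116685494, plus strand: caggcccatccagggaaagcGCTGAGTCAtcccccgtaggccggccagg
Gclm, chr3:122245403-122245451, plus strand: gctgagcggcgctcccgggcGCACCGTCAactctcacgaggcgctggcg
G6pdx, chrX:74428909-74428957, minus strand: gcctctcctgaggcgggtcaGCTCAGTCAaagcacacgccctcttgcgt
Blvra, chr2:127070588-127070636, plus strand: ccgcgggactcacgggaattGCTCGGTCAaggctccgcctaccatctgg

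The 4 genes with these windows had smaller folds than Hmox1. Prdx1, a peroxidase that uses thioredoxin, was at 806, 627 and 631 CPM in the rim and 1368, 1292 and 1307 in the core. Gclm, the modifier subunit of the enzyme that limits glutathione synthesis, was at 36.2, 29.9 and 28.5 against 71.5, 56.1 and 41.6 CPM. G6pdx, which feeds NADPH to these systems, had 29.1, 17.1 and 11.4 against 60.5, 47.1 and 32.5 CPM, and Blvra, the reductase that turns biliverdin into bilirubin after Hmox1, 43.2, 29.0 and 30.4 against 62.2, 57.8 and 60.4 CPM.

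Proteinases and their inhibitors had 10 of 35 members higher in the core and 5 in the rim. Mmp12 (macrophage elastase) was at 80.8, 11.9 and 5.71 CPM in the rim and 157, 152 and 101 in the core, and Adam8, a membrane metalloproteinase of leukocytes, at 83.4, 22.2 and 19.0 against 225, 185 and 119. The largest fold of the list was that of Mmp9 (gelatinase B), a low gene at 5.02, 2.56 and 1.90 against 52.9, 25.7 and 13.7 CPM. Slpi, an inhibitor of neutrophil elastase, had a log2 core over rim of 1.89 ± 0.23 (edgeR adjusted p = 0.000142). Mmp2 (gelatinase A), a product of fibroblasts, was higher in the rim, at 94.4, 446 and 534 against 84.5, 382 and 301 CPM.

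Cell cycle genes were higher in the core where they differed: 15 of 31, against 0 higher in the rim, with a median log2 core over rim of 0.57. Mki67, present in dividing cells, was at 81.9, 39.3 and 28.5 CPM in the rim and 124, 96.0 and 86.2 in the core. Ccnb1, the cyclin of mitosis, was at 28.1, 14.5 and 7.61 against 55.6, 32.2 and 33.2 CPM. The spots do not say which cells these transcripts came from.

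Contractile genes gave 6 of 16 higher in the core and 2 higher in the rim. Acta2, smooth muscle alpha actin and a gene of myofibroblasts, was at 629, 646 and 671 CPM in the rim and 717, 1873 and 1478 in the core, with a log2 core over rim of 0.79 ± 0.20 (edgeR adjusted p = 0.0142). This call was lost without the 5 dpi section labelled female (edgeR adjusted p = 0.185) and without the section labelled male (0.115). At 5 dpi its level climbed along the whole depth, from 561 and 562 CPM at the first step to 1999 and 1663 CPM beyond 16 steps, and at 3 dpi it lay between 584 and 885 CPM at all depths. Actg2 and Tpm2, which encode the gamma actin of smooth muscle and beta tropomyosin, had log2 core over rim of 1.66 and 0.70. Tagln and Myh11, also genes of smooth muscle, did not pass. The members higher in the rim, Tpm1 and Fhl2, are abundant in cardiomyocytes.

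Tgfbi, a matrix protein induced by TGF-beta and made by macrophages and fibroblasts, was at 245, 119 and 108 CPM in the rim and 476, 558 and 440 in the core (log2 core over rim 1.53 ± 0.21, edgeR adjusted p = 0.000231). Of 19 TGF-beta ligands and targets, it was 1 of 2 higher in the core, with Inhba, which encodes an activin subunit. Tgfb3 and Bambi, a ligand and a decoy receptor, were the 2 higher in the rim. Of 21 matricellular proteins 5 were higher in the core and 3 in the rim, with a median log2 rim over core of -0.05. Thbs1 and Ccn5 were among the 5, with log2 core over rim of 1.005 and 1.10. Col11a1, a fibril collagen of cartilage, was at 7.03, 29.0 and 41.8 CPM in the rim and 12.0, 101 and 62.4 in the core, and Acan (aggrecan), the large proteoglycan of cartilage, at 1.004, 4.27 and 5.71 against 4.36, 36.9 and 19.5 CPM.

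The 12 genes with the largest folds toward the rim among those above the RZ were Cilp, Thbs4, Clu, Rcan1, Sema3b, Islr, Itm2a, Hspb1, Col8a2, Fxyd6, Ptn and Fmod. Among them are genes of matrix proteins, Cilp, Thbs4, Col8a2 and Fmod, and the gene of a small heat shock protein of muscle, Hspb1. Of the 12, 4 were highest in the rim of the 6 bands in 3 of 3 sections, Cilp, Thbs4, Hspb1 and Fmod. The call above the RZ is that of the fit and does not hold for each section. At 3 dpi Islr was at 37.2 CPM in the rim and 39.2 in the RZ, and Fxyd6 at 50.7 and 48.8. By depth, 11, 10 and 10 of the 12 were highest at the first or second step, and 0 in the deepest spots, whereas 11, 9 and 10 of the 11 core genes were highest in the deepest spots. Both groups were chosen by the fold between these depths, so their place by depth describes them and supports nothing further.

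Cilp encodes cartilage intermediate layer protein, a matrix protein that binds TGF-beta1. It was at 169.7, 724 and 692 CPM in the rim, 31.6, 111 and 120.2 in the core and 82.0, 116 and 84.2 in the RZ. Rim and core did not overlap, and the log2 rim over core was 2.74 ± 0.13 (edgeR adjusted p = 1.17e-06), with a log2 rim over RZ of 2.002 (edgeR adjusted p = 3.78e-05). Its level was highest at the first step, with 205, 748 and 743 CPM, and went down in most steps inward to 16.8, 57.5 and 80.3 CPM in the deepest spots. A Cilp UMI was found in 49.4%, 87.8% and 89.2% of rim spots and in 13.5%, 32.0% and 40.3% of core spots. Both 5 dpi rims were far above the 3 dpi rim.

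Thbs4 (thrombospondin 4, of tendon and stressed heart) was at 109, 393 and 559 CPM in the rim and 35.5, 121 and 133 in the core (log2 rim over core 1.98 ± 0.14, edgeR adjusted p = 1.34e-05). Within each section the rim was above the core, although the 3 dpi rim lay below both 5 dpi cores. Fmod (fibromodulin, which binds collagen fibrils) was at 16.6, 201 and 268 CPM against 9.82, 111 and 109, with 2.22, 7.01 and 6.04 CPM in the RZ. Scx, a transcription factor of tendon, was at 26.1, 56.3 and 64.7 against 13.1, 43.7 and 34.0 CPM. Of 12 cartilage and tendon type matrix genes, 5 were higher in the rim and 2, Acan and Ccn5, in the core.

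Small leucine-rich proteoglycans, which bind collagen fibrils and growth factors, gave 5 of 9 higher in the rim and 0 in the core, with a median log2 rim over core of 0.60. Besides Fmod these were Aspn, Ogn, Dcn and Ecm2. Aspn (asporin) was at 216, 401 and 439 CPM in the rim and 103, 314.5 and 247.5 in the core (log2 rim over core 0.90 ± 0.15, edgeR adjusted p = 0.000861). Ogn (osteoglycin) was at 208, 362 and 437 against 104, 240.5 and 257 CPM. Dcn (decorin), at 467, 743 and 797 against 322, 539.5 and 646 CPM, did not pass between rim and RZ (log2 rim over RZ 0.08, edgeR adjusted p = 0.751). Biglycan (Bgn) and lumican (Lum) did not pass between rim and core, with log2 rim over core of 0.32 and 0.50.

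Collagens were counted in 2 lists, and the difference between the lists was not tested. Of 13 fibrillar and fibril-associated collagens 3 were higher in the rim, Col9a2, Col12a1 and Col16a1, 1 was higher in the core, Col11a1, and 9 did not pass. The main fibril genes Col1a1 and Col3a1 had log2 rim over core of -0.10 ± 0.12 (edgeR adjusted p = 0.620) and 0.18 ± 0.12 (0.369). Of 10 other collagens, those of basement membranes and of networks, 8 were higher in the rim and 1 in the core (median 0.54). Col6a1, a chain of the beaded filaments around cells, was at 194, 421 and 314 CPM in the rim and 155, 243 and 199 in the core. Col15a1 and Col4a1, of basement membranes, had log2 rim over core of 0.69 and 0.47. The member higher in the core was Col18a1, whose fragment is endostatin, at 91.4, 129 and 175 against 212, 207 and 273 CPM. Col8a2, of the network of collagen VIII, was at 8.54, 96.4 and 64.7 against 4.36, 31.5 and 46.4 CPM (log2 rim over core 1.305 ± 0.23, edgeR adjusted p = 0.00181), a call lost without the 5 dpi section labelled female (log2 rim over core 0.74, edgeR adjusted p = 0.115).

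Elastic fibre and latency proteins had 6 of 16 higher in the rim and 1 in the core. Mfap5, a glycoprotein of microfibrils, was at 649, 1335 and 1170 CPM in the rim and 333, 690 and 738 in the core. Eln (elastin) was at 55.2, 375.5 and 552 against 42.0, 197 and 443 CPM, and Ltbp4, which holds latent TGF-beta in the matrix, at 187, 599 and 531 against 165, 238 and 317. Emilin2 was the member higher in the core, at 53.7, 23.0 and 26.6 in the rim and 118, 98.0 and 89.0 CPM in the core. Enzymes that modify collagen, including the lysyl oxidases and prolyl hydroxylases, did not pass in 24 of 26 cases.

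The 6 genes that the study names as examples of markers of reparative cardiac fibroblasts were all higher in the rim than in the RZ, and they divided in the comparison with the core. Postn, the gene of periostin, was at 2819, 4676 and 5159 CPM in the rim and 1354, 3214 and 2991 in the core (log2 rim over core 0.96 ± 0.12, edgeR adjusted p = 0.000153). Ptn (pleiotrophin, a heparin-binding growth factor) was at 87.9, 172 and 205 CPM against 43.1, 92.7 and 88.0 (1.21 ± 0.14, edgeR adjusted p = 8.06e-05), and was highest in the middle of the IZ in 3 of 3 sections. Cthrc1, at 402, 585 and 827 CPM in the rim and 294, 658 and 659 in the core, did not pass (log2 rim over core 0.37 ± 0.14, edgeR adjusted p = 0.0863). Like Ptn, Cthrc1 was highest in the middle in 3 of 3 sections, at 457, 696 and 836 CPM. Ddah1, Fn1 and Lox, which encode an enzyme that degrades methylated arginine, fibronectin and lysyl oxidase, did not pass either, with log2 rim over core of 0.35 ± 0.14, -0.24 ± 0.12 and 0.06 ± 0.13. A p that misses the threshold does not show that the levels were the same.

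The GFP transcript, which follows Col1a1 in these mice, was at 2206, 5740 and 6299 CPM in the rim and 2777, 7802 and 9737 in the core, and its log2 core over rim of 0.30 ± 0.11 did not pass (edgeR adjusted p = 0.0775). Col1a1 itself was at 2959, 4987 and 4093 CPM in the rim and 2957, 6569 and 5398 in the core. Col1a1 and GFP thus did not pass in either direction, while Cilp, Thbs4, Postn, Aspn and Ptn were higher in the rim. Of 17 genes of resting fibroblasts 8 were higher in the rim and 0 in the core. The 8 include Lpl, which muscle and capillaries also express, and 5 of the 17 were lower in the rim than in the RZ. Pi16, of adventitial fibroblasts, was at 54.7, 206 and 129 CPM in the rim, 23.5, 39.9 and 108 in the core and 183, 235 and 160 in the RZ, so the rim lay between core and RZ in 3 of 3 sections.

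Gene groups that the study ranked along the activation of fibroblasts, from single-cell data of other hearts, were read in the same way. The groups are called by the titles of the lists, and the column headings inside the lists carry the names D1 and D2 the other way round. The lists used are shorter than the programs that the study describes. Of 43 genes of group D1, 12 were higher in the rim and 3 in the core (median log2 rim over core 0.27), and of 53 genes of D2 tested, 21 and 4 (median 0.33). Ltbp3 and Fndc1 did not pass, with log2 rim over core of 0.35 and 0.53. Of 5 secreted Wnt antagonists tested 2 were higher in the rim, Dkk3 and Apcdd1, and 0 in the core, and of 18 genes of integrin subunits and of the related Itgbl1 3 and 7. Those higher in the rim were Itga7, a subunit of the laminin receptor of muscle, Itga9 and Itgbl1, which encodes a secreted integrin-like protein, and those higher in the core included the leukocyte subunits Itgam and Itgb2, with log2 core over rim of 1.86 and 1.54.

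**Figure D3:**
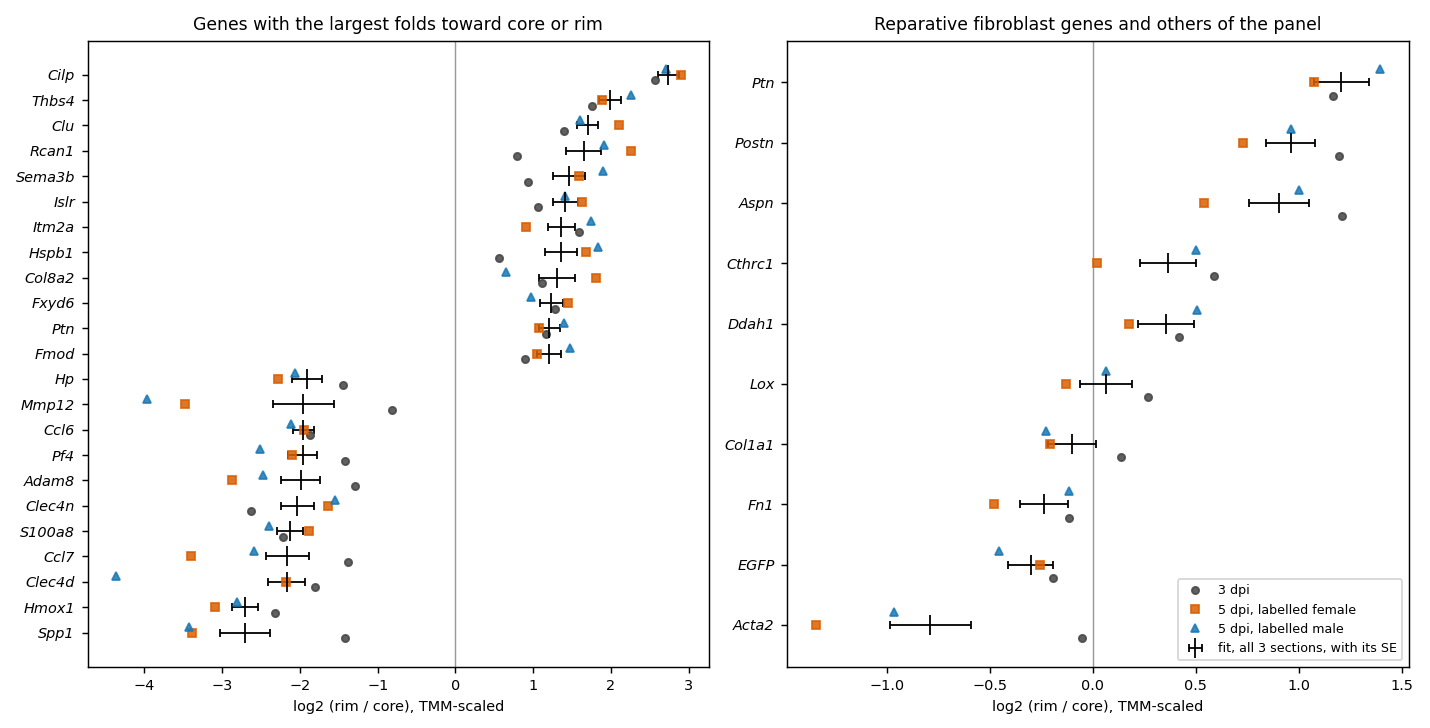
Log2 rim over core (x axis, TMM-scaled) of the 11 core genes and the 12 rim genes above the RZ (left) and of the reparative fibroblast panel (right), with the fitted value and its SE as black bars and each section as a coloured symbol. The folds run from -2.71 for Spp1 to 2.74 for Cilp, and the panel runs from Acta2 at -0.79 to Ptn at 1.21.

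Clu (clusterin, an extracellular chaperone that also restrains complement) was the most abundant rim gene, at 5329, 10370 and 11440 CPM in the rim, 2233, 2766 and 4247 in the core and 1624, 2681 and 2109 in the RZ. Rim and core did not overlap, with a log2 rim over core of 1.70 ± 0.14 (edgeR adjusted p = 1.86e-05). Its peak was not always in the rim: border zone 2, the muscle within 2 steps outside the IZ, had 4540, 11660 and 8858 CPM, above the rim in the section labelled female. Within the core the spots differed widely, with median levels of 1925, 1136 and 1183 CPM and 90th percentiles of 5211, 6901 and 11010 CPM.

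Rcan1, an inhibitor of calcineurin that calcineurin itself induces, was at 342, 361 and 382 CPM in the rim and 218, 86.2 and 115 in the core. In border zone 2 it was at 357.5, 457.5 and 356 CPM. Hspb1, a small heat shock protein of muscle, was at 899, 1045 and 1510 in the rim against 672, 374 and 477 CPM in the core and 517, 613 and 715.5 CPM in the RZ. Sema3b, a secreted semaphorin, had 45.2, 45.2 and 70.4 CPM in the rim and 26.2, 17.1 and 21.3 in the core. These 4 genes peaked around the limit of the IZ, in the rim or in the muscle beside it.

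The rim and core were also compared after rim spots had been kept only where their cardiomyocyte share was at or under the 90th percentile of the core spots of their section, which left 127, 9 and 17 rim spots. In this comparison 44 genes were called higher in the rim and 39 higher in the core. All 11 core genes and all 12 rim genes kept their direction, and 8 of each were still called. The spots kept are part of the rim by which these genes were named, and the core was unchanged. A kept direction is therefore no separate check. Cilp, Thbs4, Postn, Aspn and Ptn had log2 rim over core of 2.38, 1.53, 1.03, 1.04 and 1.74 there, and all 5 were called. Clu, Rcan1, Hspb1 and Sema3b had 0.05, 0.29, 0.48 and 0.87 and were not called. Of the core genes, Clec4d, Adam8 and Mmp12 were not called, and the values of Hmox1 and Spp1, given as log2 rim over core, were -2.11 and -1.88. Of all 709 core genes, 669 of the 699 tested kept their direction, as did 107 of 114 rim genes above the RZ and 604 of 691 below it. Calls were kept by 33, 17 and 10 of these genes. The median log2 rim over core of the 3 groups went from -0.80 to -0.51, from 0.77 to 0.54 and from 1.08 to 0.32. The fewer spots and the matching act together here and cannot be told apart.

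**Figure D4:**
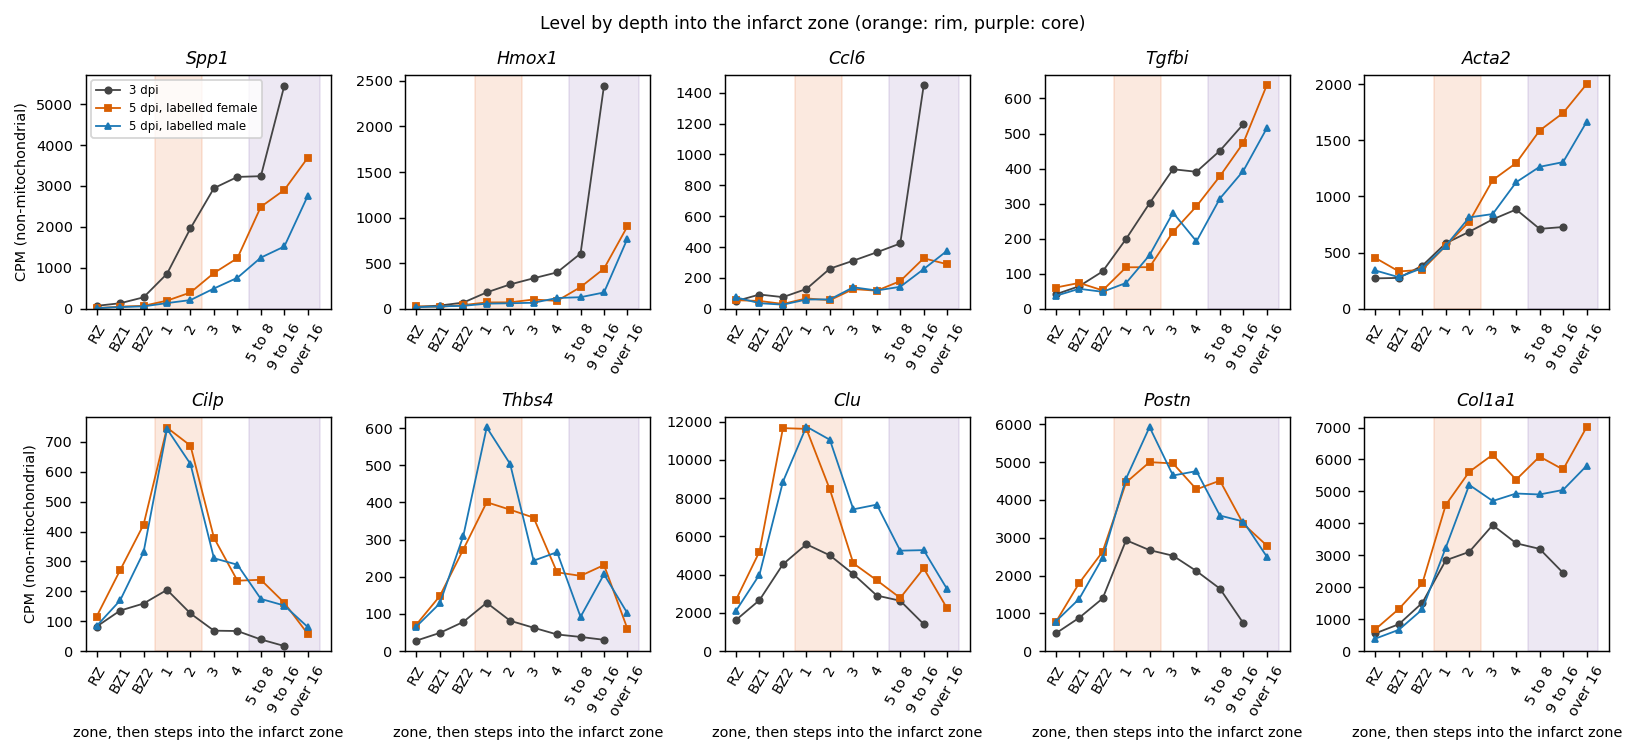
Levels in CPM (y axis, from 0) of 10 genes by zone (remote zone, border zones 1 and 2) and then by step into the infarct zone (x axis), 1 line a section, with the rim shaded orange and the core purple. Hmox1 goes up to 2447 CPM at 9 to 16 steps at 3 dpi, Cilp is highest at the first step with 205, 748 and 743 CPM, and Col1a1 climbs from the RZ into the rim and has no single direction from rim to core.

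Outside the 115, the 5 genes with the largest folds toward the rim were Ptgds, Ank1, Fbxo40, Nmrk2 and Fhod3, which encode prostaglandin D2 synthase, an ankyrin, a muscle ubiquitin ligase subunit, a nicotinamide riboside kinase of muscle and a formin of heart muscle. Ptgds was at 144, 133 and 207 CPM in the rim, 37.6, 15.8 and 17.5 in the core and 559, 315 and 375 in the RZ, the same order as for the cardiomyocyte share. For the others the RZ was also above the rim in every section except for Fbxo40 in the sections at 5 dpi, where the rim had 112 and 91.3 CPM and the RZ 107 and 76.1. Matched on cardiomyocyte share, Nmrk2 had a log2 rim over core of -0.02. Of the called named genes tested in that comparison, only Nmrk2 and Mmp15 changed sign.

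Cardiomyocyte genes are given as a description, since the rule selects on some of them. The 12 genes of the rule had a median log2 rim over core of 2.44, and the other 70 cardiomyocyte genes that could be tested 2.17. Ckm (muscle creatine kinase) went from 502, 582.5 and 545 CPM at the first step to 107, 11.7 and 19.2 CPM in the deepest spots. Acta1, skeletal actin, was at 938, 1497 and 2179 CPM in the rim, 264, 59.8 and 129 in the core and 1088, 1497 and 1794 in the RZ, so that its rim level was near that of the RZ although the 12 genes of the rule were lower there. Of 43 genes of oxidative metabolism 42 were higher in the rim than in the core and 43 lower than in the RZ, with a median log2 rim over core of 1.14. They moved with the cardiomyocyte share, and its part in their values was not tested.

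Hypoxia targets and glycolytic enzymes moved both ways: 16 of 38 were higher in the rim, 6 higher in the core, and the median log2 rim over core was 0.18. The rim members included Hk2, a hexokinase of muscle, at 71.3, 49.5 and 34.2 CPM against 41.5, 10.97 and 7.61. Bnip3, an outer mitochondrial membrane protein of mitophagy, was at 66.8, 103 and 183 against 52.9, 37.0 and 44.4 CPM, and the oxygen sensor Egln3 at 30.6, 27.3 and 45.6 against 19.6, 8.91 and 13.7. All 3 are also expressed in muscle, where their RZ levels were 79.8, 94.6 and 56.0 CPM for Hk2, 96.8, 118 and 147 for Bnip3 and 53.2, 45.5 and 46.3 for Egln3. The core members were Angptl4, Hilpda, Pfkfb3, Slc16a3, Hif1a and Eno1. Angptl4, which inhibits lipoprotein lipase, was at 35.1, 53.8 and 41.8 CPM in the rim and 101, 126 and 142 in the core, with no overlap (log2 core over rim 1.299 ± 0.16, edgeR adjusted p = 0.000119). Hilpda, a lipid droplet protein, was at 10.0, 7.68 and 9.51 against 29.5, 22.3 and 15.7 CPM, and Slc16a3, the lactate exporter, at 32.6, 41.8 and 41.8 against 91.1, 58.1 and 56.6.

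The core of the hypoxia response element, ACGTG on both strands, was searched in the RefSeq promoters (GRCm38.p6) of this list. Promoters of 33 of the 40 genes were found, and 26 of the 46 held it (56.5%), against 19.6% of all promoters. The windows show that members called in opposite directions carry the same letters, in the direction of the gene. In each window 1 match stands in capitals (CACGT where it is on the other strand). The window of Slc16a3 holds another match, left in lower case, and in that of Bnip3 the match overlaps one on the other strand.
Hilpda (core), chr6:29272563-29272607, plus strand: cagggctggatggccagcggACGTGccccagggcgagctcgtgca
Slc16a3 (core), chr11:120949020-120949064, plus strand: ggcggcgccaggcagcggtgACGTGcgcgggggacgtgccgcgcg
Bnip3 (rim), chr7:138909589-138909633, minus strand: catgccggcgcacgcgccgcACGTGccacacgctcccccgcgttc
Egln3 (rim), chr12:54204079-54204123, minus strand: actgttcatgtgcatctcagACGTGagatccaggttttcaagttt
Hk2 (rim), chr6:82774482-82774526, minus strand: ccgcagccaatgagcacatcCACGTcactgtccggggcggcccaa

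Vessel genes were read as markers of the cells that the bands could hold. Of 29 endothelial genes 7 were higher in the rim and 1 in the core, and the summed level was 3558, 3594 and 3625 CPM in the rims and 3730, 2304 and 2986 in the cores, so the 3 dpi section did not share the direction. Ly6c1, of capillary endothelium, was at 272, 288.5 and 293 CPM against 207, 132 and 186, and Gpihbp1, which carries lipoprotein lipase across capillaries, at 148, 121 and 164 against 140, 54.2 and 118. The member higher in the core was Apln (apelin, a peptide of sprouting tip cells), at 10.0, 11.1 and 9.51 in the rim and 55.1, 10.6 and 19.5 in the core, and its 5 dpi section labelled female did not share the direction in CPM. Pecam1 did not pass (log2 rim over core 0.18 ± 0.20, edgeR adjusted p = 0.596).

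The list of pericyte and smooth muscle genes holds Pln, whose direction the rule fixes, and it was counted without it. Of the other 15 genes 6 were higher in the rim and 3 in the core, with sums of 5365, 6525 and 5810 CPM in the rim and 3677, 3658 and 3655 CPM in the core. The pericyte genes Rgs5, Abcc9, Higd1b and Kcnj8 were higher in the rim. Rgs5, a regulator of G protein signalling, was at 151, 339 and 266 CPM against 94.9, 117 and 182 (log2 rim over core 1.11 ± 0.18, edgeR adjusted p = 0.00104). Abcc9, a subunit of a potassium channel that cardiomyocytes also express, was at 33.1, 36.7 and 34.2 against 12.0, 14.1 and 19.0 CPM. The 3 higher in the core were Acta2, Mustn1 and Mcam. Des, which pericytes and cardiomyocytes share, was among the 6 higher in the rim. It is also a member of the cardiomyocyte list and stays in the sums above. The sums thus do not stand for vessel cells alone, and the part of Des in them was not tested.

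Of 7 mesothelial genes, markers of the heart surface, 3 were higher in the rim and 0 in the core, and the call of Msln (mesothelin) ended without the 5 dpi section labelled female (edgeR adjusted p = 0.447). Msln was at 0, 111 and 19.0 CPM in the rim and 2.18, 37.2 and 5.58 in the core, and Krt18, a keratin, at 32.6, 40.1 and 77.97 against 19.6, 23.0 and 31.2. The list summed to 39.2, 314 and 152 CPM in the rim and 48.0, 141 and 59.1 in the core. Red cell genes summed to 2156, 38680 and 10030 CPM in the rim and 5459, 21870 and 11470 in the core, and 0 of 6 passed, so the content of blood differed more between sections than between bands.

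Interferon-induced genes showed few calls. Of 28 interferon-induced genes 1 was higher in the core, Oas1a, and 0 in the rim. Of 9 genes of MHC class II and its pathway 1 was higher in the core, and of 5 lymphocyte genes tested 1, Cd79a, a B cell receptor subunit at 2.51, 0.854 and 3.80 CPM in the rim and 13.1, 7.20 and 9.13 in the core. Of 34 genes of protein folding and secretion 8 were higher in the core and 0 in the rim, of 20 immediate early genes 4 and 1, and of 21 complement genes 7 and 3, beside 6.79% and 11.8% of all genes. Lymphatic endothelial genes gave 1 of 4 in each direction, Prox1 in the rim, which cardiomyocytes also express, and Pdpn in the core, which activated macrophages and fibroblasts also express.

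Some calls of genes named above ended when 1 section was left out, in each case with the direction kept. Of 136 called genes, 27 did not pass without the 5 dpi section labelled female (edgeR adjusted p from 0.0538 to 0.447). They were Acan, Acta2, Apcdd1, Blvra, Col11a1, Col12a1, Col15a1, Col16a1, Col4a1, Col8a2, Dcn, Eln, Eno1, Gaa, Gas6, Gclm, Gpihbp1, Hif1a, Inhba, Itga9, Itgbl1, Msln, Oas1a, Pfkfb3, Prox1, Tgfb3 and Tpm2. Without the section labelled male 15 of the 135 tested did not pass (edgeR adjusted p from 0.0656 to 0.339), namely Acta2, Blvra, Col12a1, Col16a1, Col4a1, Eno1, Gas6, Hif1a, Mcam, Mmp2, Mustn1, Oas1a, Pfkfb3, Tgfb3 and Tpm2, and Acan was not tested. Without the 3 dpi section Apln (edgeR adjusted p = 0.767) and Slc16a3 (0.2995) did not pass.

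**Figure D5:**
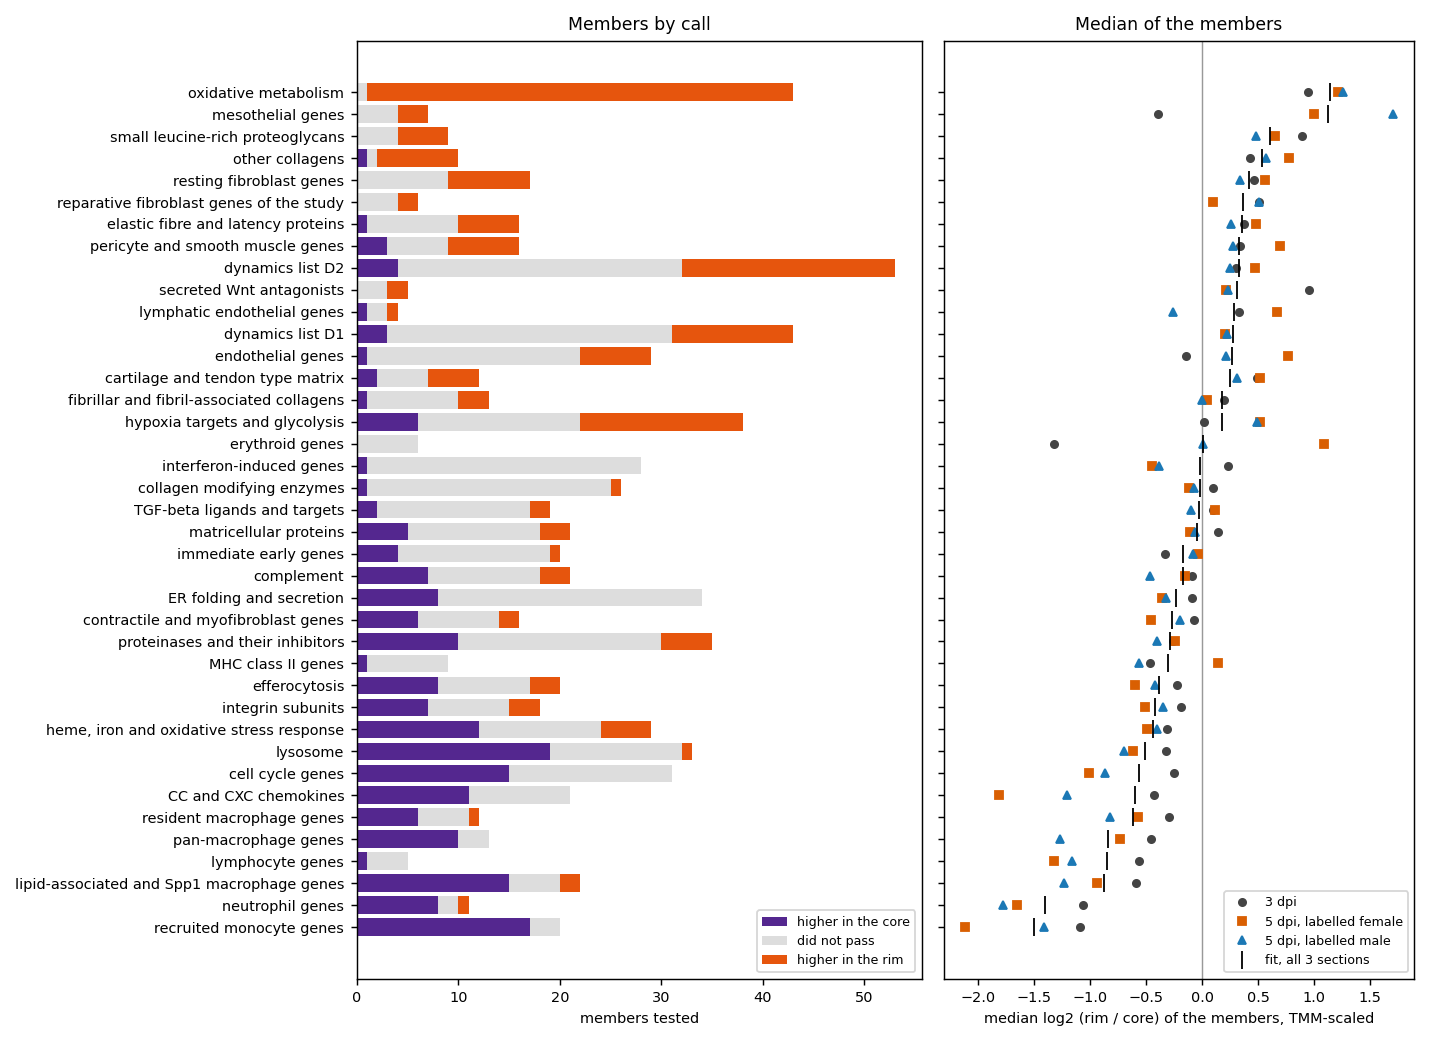
Members tested of each gene list outside the cardiomyocyte lists, by call (left: higher in the core, did not pass, higher in the rim) and the median log2 rim over core of the members (right, TMM-scaled) by the fit and in each section. Recruited monocyte genes lie farthest toward the core with 17 of 20 members called, and of the lists drawn oxidative metabolism lies farthest toward the rim with 42 of 43 (pericyte and smooth muscle genes are drawn with Pln), beside 11.8% and 6.79% of all genes.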

How the data were processed

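The authors deposited raw UMI counts per gene and spot, made with Space Ranger (mm10 in the submitters' processing notes, an Ensembl-based reference in the methods) with a GFP sequence added, and without normalization; they also marked by hand which spots lie under tissue. The section labelled male holds 623 unmarked spots, which entered no band. Sections share 446 to 1165 spot barcodes, as arrays do, and 0 spots were identical.

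Distances are straight steps on the array, also across the cavity. Counts were summed per band and section, with the 13 mitochondrially encoded genes left out, and tested with edgeR 4.0.16 (limma 3.58.1, R 4.3.3): TMM, the default filter on low counts, the section as a block because rim and core of a section come from 1 heart, a quasi-likelihood test on 6 sums, two-sided, and Benjamini-Hochberg adjustment at 0.05. SEs are the log2 fold change over the root of F. CPM, lists and promoter searches were computed in Python 3.11.15. The floor for 0 UMIs, 3 counts, covers counting error only.

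Bands, gene lists and named genes were chosen with earlier results of these data known. Named were, among genes past the threshold in the same direction in 3 of 3 sections with at least 50 CPM in rim or core and outside cardiomyocyte and oxidative genes, the 12 with the largest fold toward the core, the 12 toward the rim that were above the RZ and 5 others toward the rim, with the fibroblast panel and the extreme members of the lists. Results of some genes, 1 of the 12 core genes among them, are not reported here, and the lists were counted without them. Of the symbols listed, 9 were not matched. Genes with near-identical copies, such as those of hemoglobin, are uncertain. In simulated counts for rim against core (10445 genes), the test recovered 66.3% of genes changed by 1 and 99% by 2 on the log2 scale, and 6.29% of calls were false. For rim against RZ (8984 genes) the values were 55.2%, 95.7% and 3.40%. The simulated counts had no differences between sections, a common dispersion for all genes and only a small part of the genes changed. The rates may therefore differ in the real counts. The effect of other settings, DESeq2 1.42.0 among them, is given in the closing section.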

Additional observations from a re-analysis of the deposited data

Results flagged for a closer look

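The spots of the 5 dpi section labelled male that are not marked as tissue, 623 in number, held RNA of core and rim genes. Spp1 was at 1135 CPM there against 0 in the control section, and Cilp at 75.82 CPM against 7.90. Their cardiomyocyte share was 1.69% and their mitochondrial share 8.23%. They entered no band, and what they cover was not tested.

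In some lists the median log2 rim over core at 3 dpi ran opposite to both 5 dpi sections, on the TMM scale. The difference was not tested, because 3 dpi has 1 heart. Interferon-induced genes had medians of 0.23 at 3 dpi and of -0.45 and -0.38 at 5 dpi. Endothelial genes had -0.15 against 0.76 and 0.21, and mesothelial genes -0.40 against 0.99 and 1.70. These 3 also ran opposite without the scaling, although endothelial genes in the section labelled male were then at 0.04. For the others at least 1 sign changed or the 3 dpi value came close to 0 without the scaling, whose shift was 0.14, 0.19 and 0.17 in the 3 sections. Erythroid genes had -1.32 against 1.085 and 0.008857 with it and -1.46, 0.90 and -0.17 without it. Collagen modifying enzymes had 0.10 against -0.12 and -0.074, and -0.04, -0.31 and -0.25 without it. Matricellular proteins had 0.14 against -0.11 and -0.064, and Col1a1 0.14 against -0.21 and -0.23. Unscaled, their 3 dpi values were 0.001531 and 0.001349, and the 5 dpi values all lay below 0. The 3 dpi core is the shallowest, with a median depth of 8 steps against 24 and 17.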

How the results depend on the processing

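The direction of a gene between rim and core rarely depended on the processing, and the number of calls did. With DESeq2's Wald test 786 genes were higher in the rim and 309 in the core, all of them among the calls reported, and 711 and 952 were higher and lower in the rim than in the RZ. Without the replicate block, that is without the section term, 818 and 294 were called, and 39 of the 80 called named genes lost their call; against the RZ 1226 and 1343 were called. The pairing of rim and core is that of 1 heart. Without the filter on low counts the core genes numbered 1117. With rim spots matched on cardiomyocyte share 44 and 39 were called, and 49 named genes lost their call with the sign kept. Nmrk2 at -0.0242 and Mmp15 at -0.12 changed sign and were no longer called either. The core of 5 to 16 steps, chosen after seeing the data, turned the median of the immediate early genes to 0.004125. Leaving out a section gave 855 to 1504 rim genes, 362 to 1128 core genes, and 537 to 1340 and 794 to 1451 genes higher and lower than the RZ. Of the called named genes, 20 lost their call without the 5 dpi section labelled female and 10 without its counterpart. These fits have 1 residual degree of freedom among sections. The 3 dpi time has no replicate, so day and heart cannot be told apart, and the small rim of the section labelled male, 93 spots, limits what low genes can show. The other settings, among them the limits of the bands, the size factors, the edge spots, the mitochondrial genes and the quality filter, kept each count within 1.5 times and changed no sign among the named genes. Calls of named genes were lost in 16 cases with DESeq2, 11 and 8 with the share limit at 0.4 and 0.6, 8 without edge spots, 7 with the core of 5 to 16 steps, 5 with a rim of 1 step, and at most 3 under each other setting of this kind.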
